A study of Mus musculus with 6 samples.

Results

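The comparison set 2 libraries labelled TG, from injured spinal cord neurons incubated with 75% hydrogen, against 2 libraries labelled NG, from neurons given the injury alone. It covered every gene whose mean over the TG and NG columns of the authors' deposited table was 10 or more, which kept 16268 of 35275 genes. The cells of both groups are labelled as spinal cord neurons from 3-day-old mice of the outbred ICR stock, grown in DMEM, and both carried the mechanical injury. The hydrogen incubation is the labelled difference between them. The other 2 libraries, labelled IG, carry the treatment label control. They came from neurons left unprocessed. Their values are given here as a level only, but the IG libraries entered the scaling and the estimate of spread used by the tests. No source used here gives the device or force of the injury, the length of the incubation, the time of harvest or the number of animals, nor whether the libraries of a group came from separate cultures. So the p-values below reflect how far the libraries of a group lie apart, and that spread may be technical.

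Molecular hydrogen is a small, freely diffusing gas that has been examined as a scavenger of strongly oxidising radicals and as a modifier of inflammation after tissue damage. Mechanical damage to the spinal cord breaks cells and vessels, sets off immediate-early transcription factors and cytokines within a short time, and later brings in neutrophils and macrophages, whose NADPH oxidases make superoxide. Neurons and glia meet such oxidants with superoxide dismutases, peroxidases and the genes that the factor Nrf2 switches on. Genes of each of these steps, and markers of the cell types that spinal cord tissue or its coverings can hold, were followed through the table.

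The recovered libraries, called A for the deeper and B for the shallower of a group, held 23911141 and 16790032 reads in TG and 20069421 and 15920819 in NG. Pearson's r of the log2 values across the 16268 genes was 0.993 between the 2 TG libraries and 0.987 between the 2 NG libraries, against 0.872 to 0.877 between a TG and an NG library. Between a TG and an IG library it was 0.9723 to 0.9755, and between an NG and an IG library 0.9074 to 0.9135. Genes share a library and are not independent replicates, so these values are descriptive. Levels below are normalised reads, that is, reads divided by a median-of-ratios factor of the library. Mitochondrially encoded genes took 5.08% to 5.64% of the reads in TG and 14.2% to 17.2% in NG. Myelin basic protein transcripts took 7.20% to 7.34% in TG and 4.08% to 4.50% in NG.

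The label of cultured neurons was checked against marker genes. General neuron markers had summed levels of 104944 to 107405 in TG and 51768 to 53288 in NG over 12 genes. Mature oligodendrocyte markers summed to far more, 2.33e+06 to 2.34e+06 in TG and 1.18e+06 to 1.22e+06 in NG, Mbp alone taking the share of reads given above. In NG the fibroblast list (121872 to 124474), the Schwann cell list (114387 to 114928) and the skeletal muscle list (88607 to 93497) also summed to more than the neuron list. Such sums depend on the genes listed. Fat, marrow and blood markers also had reads, as detailed below. The libraries thus held transcripts of many cell types beside neurons, and the values below describe that mixture. In such bulk libraries, fewer cells of a type and less RNA per cell cannot be told apart.

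At an adjusted p under 0.05 (limma, Benjamini-Hochberg over 24511 genes with a read), 5082 of the 16268 genes were higher in TG, which is 31.2%, and 5017 were lower, which is 30.8%. The shares of 31.2% and 30.8% are the background for each count of called genes in a list below. The median log2 fold change over all 16268 genes was 0.00. Of the called genes, 2233 were higher by 2-fold or more (13.7% of all) and 2748 were lower by 2-fold or more (16.9%). At 8-fold or more, 91 genes were higher and 420 were lower. The 2 TG libraries did not overlap the 2 NG libraries in 82.5% of the 16268 genes, the 10099 called genes among them, and since a call rests on the same separation this adds nothing to it. Scaling by total reads without mitochondrially encoded genes moved the median of all genes by -0.15 on the log2 scale and gave 4082 higher and 6105 lower genes, so the changes below are read relative to the median gene. Without TG A, 3243 genes were called higher and 3469 lower, and without TG B, 3223 and 3409. Just inside the minimum mean, 1810062G17Rik and Gm26710 had log2 fold changes of -1.52 and -1.46, and just outside it, Utf1 at a mean of 9.96 and Cpsf4l at 9.97 had 1.92 and 0.13. In the table deposited by the authors, 8713 of the 16268 genes had an adjusted p under 0.05, of which 8690 were also called here, each in the same direction.

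**Figure D1:**
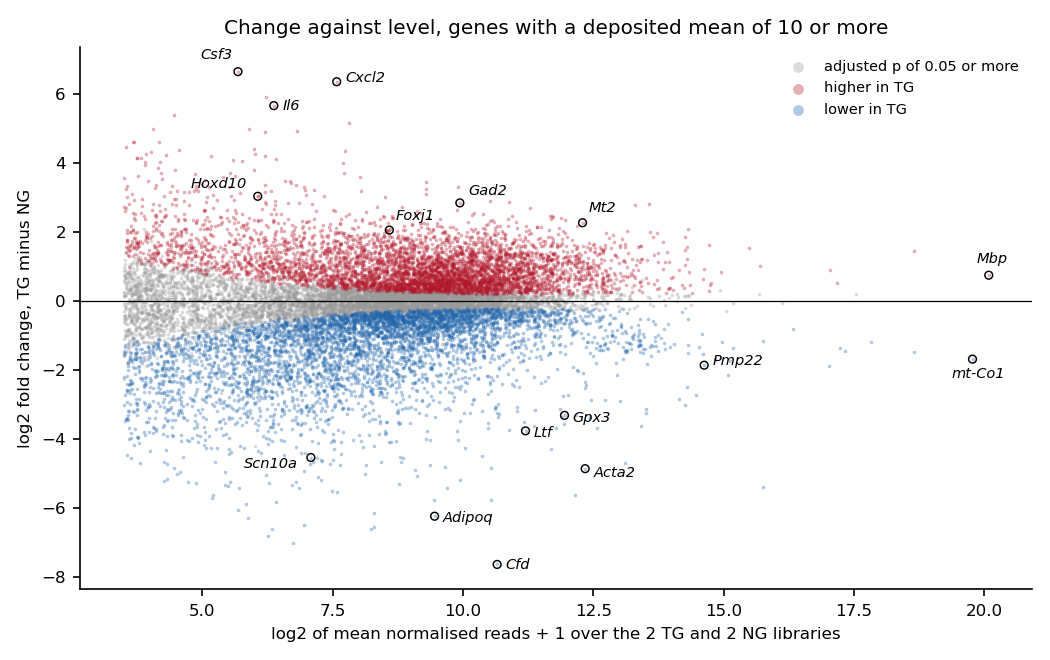
Log2 fold change of TG over NG against the log2 mean level of each of the 16268 genes. Red genes were called higher in TG (5082), blue genes lower (5017) and grey genes had an adjusted p of 0.05 or more. More genes lie beyond 8-fold on the lower side (420) than on the higher (91); Cfd is at -7.65, Cxcl2 at 6.37 and Csf3 at 6.66.

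The 12 highest changes, under a rule that took protein-coding genes with an official symbol, held a granulocyte growth factor, 3 chemokines and interleukin-6. Csf3 (GRCm38 chr11:98701263-98703629, plus strand), which encodes the growth factor G-CSF that drives neutrophil production, had 91.7 and 109.5 normalised reads in TG A and B, against 0 and 0 in NG A and B. No read of it was seen in either NG library. Set against the floor of 3 reads over both NG libraries, its level was at least 61.4-fold higher in TG, and the fit gave an adjusted p of 1.48e-06 (limma). The neutrophil-attracting chemokine gene Cxcl2 (chr5:90903871-90905938, plus strand) had 402 and 349 normalised reads in TG A and B, against 1.94 and 6.03 in NG A and B. Both TG libraries stood far above both NG libraries, at a ratio of 101 with a 95% counting interval of 48.8 to 252 (6.37 ± 0.36 (SE) log2 fold change, adjusted p = 3.17e-06 by limma). Its neighbour on chromosome 5, Cxcl1, had 463 and 413 in TG, against 7.77 and 15.7 in NG, and Cxcl3 had 49.9 and 34.2 in TG, against 0 and 0 in NG. Cxcl1 rose (5.18 ± 0.27 (SE) log2 fold change, adjusted p = 2.24e-06 by limma), and Cxcl3, with no read in NG, was at least 26.9-fold higher in TG. The interleukin-6 gene Il6 (chr5:30013114-30019981, plus strand) had 173 and 149 normalised reads in TG A and B, against 1.94 and 2.41 in NG A and B. The TG libraries again lay well apart from NG, at a ratio of 75.9 with a 95% counting interval of 29.4 to 280 (5.67 ± 0.23 (SE) log2 fold change, adjusted p = 7.33e-07 by limma). Such intervals cover counting error only. As levels in IG A and B, Csf3 had 82.1 and 98.6, Cxcl2 had 255 and 263, Cxcl1 had 526 and 493, and Il6 had 227 and 234.

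Ucn2, which encodes urocortin 2, a peptide of the corticotropin-releasing hormone family, had 164 and 127 in TG, against 0 and 4.82 in NG. It was higher in TG (5.91 ± 0.67 (SE) log2 fold change, adjusted p = 0.000134 by limma), though without TG B its adjusted p was 0.0502. Ak7, an adenylate kinase gene of motile cilia, had 117 and 112 in TG, against 4.86 and 1.21 in NG, and rose with a log2 fold change of 5.01. The remaining high genes were Pkd1l2, Hmga1b, Krt6a, Hbq1a and Stfa1, with log2 fold changes of 4.48 to 4.94. Krt6a, Hbq1a and Stfa1 had no read in NG, so that their levels were at least 14.9, 14.9 and 13.2-fold higher in TG. Their means over both groups were 11.6, 11.5 and 10.4. They thus passed the minimum mean of 10 only through TG, which fixed their direction in advance. Hmga1b is a close copy of Hmga1 and Stfa1 belongs to a family of near-identical genes, so their reads are uncertain.

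Among the 12 lowest changes, fat cell and muscle genes were prominent. Cfd (chr10:79890853-79892655, plus strand), which encodes adipsin, a serine protease secreted by fat cells, had 21.7 and 10.3 normalised reads in TG A and B, against 3232 and 3178 in NG A and B. Both NG libraries exceeded both TG libraries by more than 100-fold (-7.65 ± 0.30 (SE) log2 fold change, adjusted p = 6.55e-07 by limma). Adipoq, the gene of the fat hormone adiponectin, had 12.9 and 22.8 in TG, against 1489 and 1277 in NG, and fell (-6.25 ± 0.26 (SE) log2 fold change, adjusted p = 8.16e-07 by limma). Actc1, which encodes cardiac and fetal muscle actin, had 7.24 and 7.99 in TG, against 608 and 618 in NG. It too was lower in TG (-6.16 ± 0.27 (SE) log2 fold change, adjusted p = 1.04e-06 by limma). Myl7, an atrial myosin light chain gene, had 0.804 and 0 in TG, against 148 and 154 in NG. A single read in TG against 280 in NG gave a ratio of 319 in favour of NG, with a 95% counting interval of 56.8 to 12655. Cd209b, a lectin gene of macrophages, and Kera, the keratocan gene of corneal and connective tissue matrix, had log2 fold changes of -7.03 and -6.61. Ces1d, Adig, Cyp2e1, Mettl21c, Tlx2 and Vgll2 completed the lowest 12, between -5.88 and -6.62. As levels in IG A and B, Cfd had 27.9 and 33.6 and Adipoq 34.8 and 33.6. Cyp2e1 instead had 198 and 161 in IG, against 257 and 229 in NG. Among the genes with most reads, the myelin gene Mbp was higher in TG (log2 fold change 0.75) and mt-Co1, mt-Cytb and mt-Nd1 were lower (-1.69, -1.49 and -1.18). The call on Mbp (limma adjusted p = 0.0186) was lost when any 1 library was left out, at adjusted p values of 0.125 to 0.347.

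Markers of the cells that make up the spinal cord itself were mostly higher in TG. Over the lists of general, inhibitory, excitatory, and motor and cholinergic neurons, the oligodendrocyte lineage, astrocytes, ependymal cells and microglia, 62 of 83 genes were higher and 8 lower, with a median log2 fold change of 0.76, against 31.2% and 30.8% and a median of 0.00 over all genes. All 8 inhibitory neuron markers rose, with a median of 1.92. Gad2, which encodes an enzyme that makes the transmitter GABA, had 1728 and 1716 normalised reads in TG A and B, against 257 and 221 in NG A and B. It was the largest change in that list (2.85 ± 0.10 (SE) log2 fold change, adjusted p = 4.13e-07 by limma). Of 7 excitatory markers, 5 rose and 1 fell, led by the vesicular glutamate transporter Slc17a6 with 2751 and 2542 in TG, against 815 and 671 in NG (log2 fold change 1.84). The count of 5 was 1 without TG B, IG A or IG B and 3 without TG A, NG A or NG B, and no gene of that list was called lower with any 1 library left out.

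**Figure D2:**
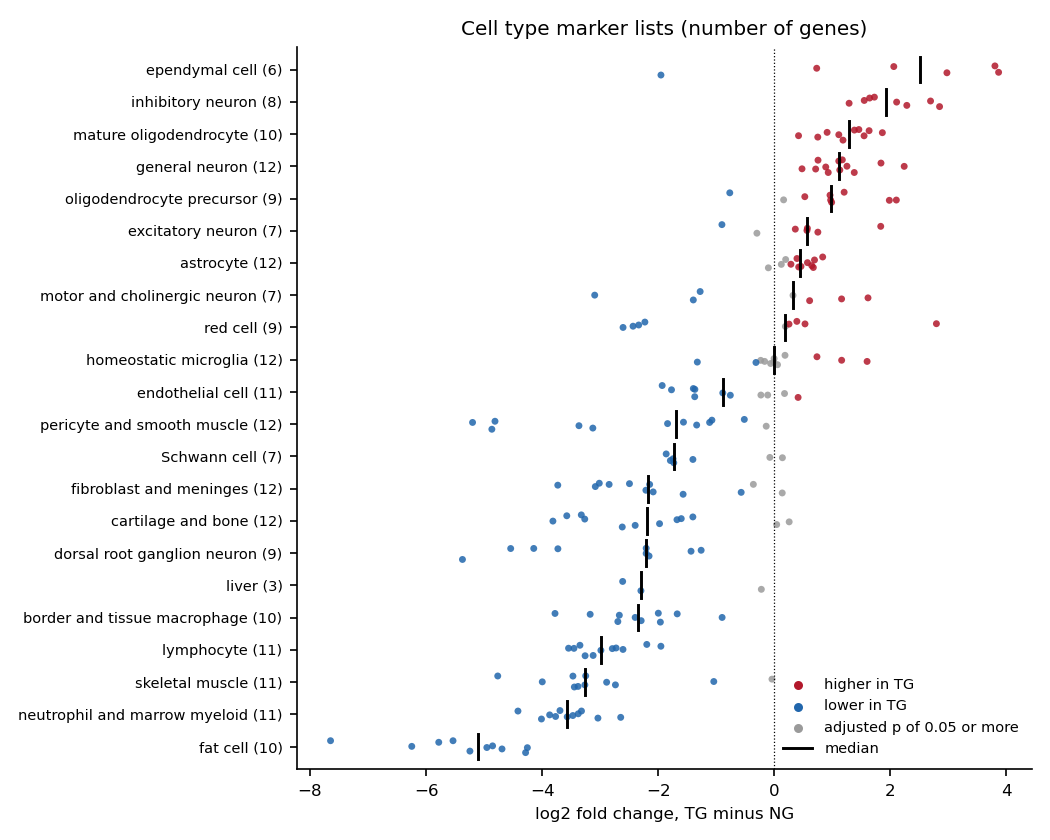
Log2 fold change of TG over NG for each member of 22 cell type marker lists, ordered by their medians (black bars); the number of genes is in parentheses. Lists of spinal neurons, oligodendrocytes and ependymal cells lie to the right of 0 and those of dorsal root ganglion neurons, fat, marrow, muscle, lymphocytes and macrophages to the left, with medians from 2.52 to -5.10.

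Motor and cholinergic markers were divided. Chat and Slc5a7, which make acetylcholine and take up its precursor choline, rose with log2 fold changes of 0.61 and 1.16, and the acetylcholinesterase gene Ache had 2508 and 2976 in TG, against 821 and 964 in NG (log2 fold change 1.62). The homeobox genes Isl1, Isl2 and Mnx1 fell instead. Isl1 had 18.5 and 18.3 in TG, against 54.4 and 45.8 in NG, with TG well below NG (-1.39 ± 0.26 (SE) log2 fold change, adjusted p = 0.00236 by limma), and Isl2 had a log2 fold change of -3.09. Isl1 and Isl2 are also used by sensory neurons of the dorsal root ganglion.

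Genes of those sensory neurons were lower in TG, in 9 of 9 members, with a median log2 fold change of -2.21. Scn10a, which encodes a sodium channel of pain-sensing neurons, had 11.3 and 9.13 normalised reads in TG A and B, against 256 and 261 in NG A and B. Both TG libraries were near 10 and both NG libraries above 250 (-4.54 ± 0.20 (SE) log2 fold change, adjusted p = 1.04e-06 by limma). The itch and touch receptor gene Mrgprd had 0 and 3.42 in TG, against 96.2 and 77.1 in NG (log2 fold change -5.37), and the actin-binding advillin gene Avil had 12.1 and 11.4 in TG, against 163 and 172 in NG. Calca, which encodes the neuropeptide CGRP, had 149.6 and 176 in TG, against 790.1 and 716 in NG, and fell with a log2 fold change of -2.21. The summed level of the 9 genes was 754 to 893 in TG and 2962 to 3043 in NG.

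Schwann cells, which myelinate peripheral axons, gave the same direction, as 5 of 7 markers fell and none rose. Pmp22, a membrane protein of peripheral myelin, had 11325 and 10477 normalised reads in TG A and B, against 42181 and 37148 in NG A and B. NG exceeded TG in every pairing of libraries (-1.86 ± 0.10 (SE) log2 fold change, adjusted p = 2.18e-06 by limma). Prx, also of peripheral myelin, fell with a log2 fold change of -1.79. Egr2, a Schwann cell transcription factor that is also an immediate-early gene, had 346 and 317 in TG, against 279.9 and 322 in NG, and missed the threshold (limma adjusted p = 0.338). Central and peripheral myelin genes therefore moved in opposite directions: all 10 mature oligodendrocyte markers were higher, by a median of 1.28, with Mag at 30128 and 31384 in TG, against 7839 and 9094 in NG. Scaling by total reads without mitochondrially encoded genes left 9 of them called higher. With 1 library left out, their median was 1.21 to 1.36.

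Oligodendrocyte precursors had 7 of 9 markers higher and 1 lower. Enpp6, a gene of newly forming oligodendrocytes, had 2277 and 2178 in TG, against 547 and 488 in NG, and rose the most (2.11 ± 0.09 (SE) log2 fold change, adjusted p = 9.89e-07 by limma), whereas Cspg4, the NG2 proteoglycan of precursors and pericytes, fell (log2 fold change -0.77) and Pdgfra had 1003 and 868 in TG, against 890.2 and 781 in NG (limma adjusted p = 0.253). Of 12 astrocyte markers 9 rose and none fell, with a median of only 0.44. Gfap, the intermediate filament of astrocytes, had 54431 and 57845 in TG, against 47358 and 50535 in NG, without passing the test (limma adjusted p = 0.144). The glutamate transporter gene Slc1a3 rose the most, by a log2 fold change of 0.84. Without TG A 3 astrocyte markers were called higher, without TG B 4 and without NG B 5.

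Ependymal cells line the central canal and carry motile cilia. Their factor Foxj1, which switches on the genes of motile cilia, had 582 and 649 normalised reads in TG A and B, against 116 and 186 in NG A and B. Both TG libraries were more than 3-fold above both NG libraries (2.06 ± 0.21 (SE) log2 fold change, adjusted p = 6.38e-05 by limma). Tmem212 had 42.6 and 37.7 in TG, against 2.92 and 1.21 in NG, and Ccdc153 had 33.0 and 29.7 in TG, against 3.89 and 0 in NG, so both rested on few reads in NG. Altogether 5 of 6 ependymal members rose and Rarres2, the chemerin gene, fell (log2 fold change -1.95). The count of 5 was 2 without TG B or NG B and 3 without TG A, IG A or IG B.

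Microglia markers did not move together. Of 12, 3 rose and 2 fell, against 31.2% and 30.8% of all genes, and their median log2 fold change was near 0. Tmem119 had 594 and 578 in TG, against 545 and 631 in NG, and Csf1r, the receptor that keeps microglia alive, had 1512 and 1498 in TG, against 1467 and 1426 in NG, neither past the test (limma adjusted p = 1.00 and 0.544). The purinergic receptor gene P2ry12, in contrast, had 1031 and 875 in TG, against 477 and 376 in NG, and rose (1.16 ± 0.16 (SE) log2 fold change, adjusted p = 0.000401 by limma). Sall1, a microglial transcription factor also used by other neural cells, had the largest rise, 1.60 on the log2 scale. Leaving out any 1 of the TG or NG libraries lost 1 of the 2 lower calls. The summed level of the list was 7687 to 7895 in TG and 6559 to 6616 in NG.

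Other leukocytes were lower in TG throughout: over the lists of border and tissue macrophages, neutrophils with marrow myeloid cells, and lymphocytes, 32 of 32 genes fell, with a median log2 fold change of -3.08. Ltf, which encodes the neutrophil granule protein lactoferrin, had 299 and 342 normalised reads in TG A and B, against 4618 and 4138 in NG A and B. NG exceeded TG more than 10-fold (-3.77 ± 0.10 (SE) log2 fold change, adjusted p = 1.50e-07 by limma). Mpo and Elane, made in the marrow at the promyelocyte stage, fell with log2 fold changes of -4.01 and -3.87, and S100a9 had 998 and 934 in TG, against 10643 and 9478 in NG. Mrc1, the mannose receptor of border macrophages, had 163 and 141 in TG, against 831 and 671 in NG, and fell (-2.29 ± 0.14 (SE) log2 fold change, adjusted p = 4.35e-06 by limma). The B cell receptor component Cd79a had 86.9 and 100.4 in TG, against 699 and 799 in NG, and the surrogate light chain gene Vpreb1, of immature B cells in marrow, had 15.3 and 14.8 in TG, against 136 and 194 in NG. Summed over its 11 genes, the neutrophil and marrow list stood at 3182 to 3523 in TG and 36409 to 37584 in NG.

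Red cell genes were divided by kind. Of the 9 red cell members, 4 globin and heme synthesis genes rose and 4 genes of the erythroid membrane and nucleus fell. The shares of all genes were 31.2% and 30.8%. The heme synthesis gene Alas2 had 7769.6 and 7738 in TG, against 6627 and 6365 in NG, and rose slightly (log2 fold change 0.26), while the anion exchanger gene Slc4a1 had 1693 and 1608 in TG, against 8629 and 9201 in NG, and fell (-2.43 ± 0.07 (SE) log2 fold change, adjusted p = 2.69e-07 by limma). Hemgn, a nuclear protein of red cell precursors, fell with a log2 fold change of -2.60. The globin genes are near-identical pairs, so the split of reads between Hbb-bs and Hbb-bt is uncertain. Without TG A or TG B, 1 gene of this list was called higher, and without NG A or NG B, 2.

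Fat cell genes had the lowest median of all lists, -5.10, with 10 of 10 lower. White fat was represented by the leptin gene Lep, with 2.41 and 1.14 in TG, against 77.7 and 88.0 in NG, and brown fat by the uncoupling protein gene Ucp1, with 98.1 and 99.3 in TG, against 3037 and 2734 in NG. Ucp1 stood near 100 in both TG libraries (-4.85 ± 0.14 (SE) log2 fold change, adjusted p = 2.12e-07 by limma). Fabp4, a fatty acid carrier of fat cells and of some endothelial cells and macrophages, had 648 and 654 in TG, against 17970.5 and 15791 in NG. The fat list summed to 925 to 963 in TG and 27429 to 30088 in NG.

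**Figure D3:**
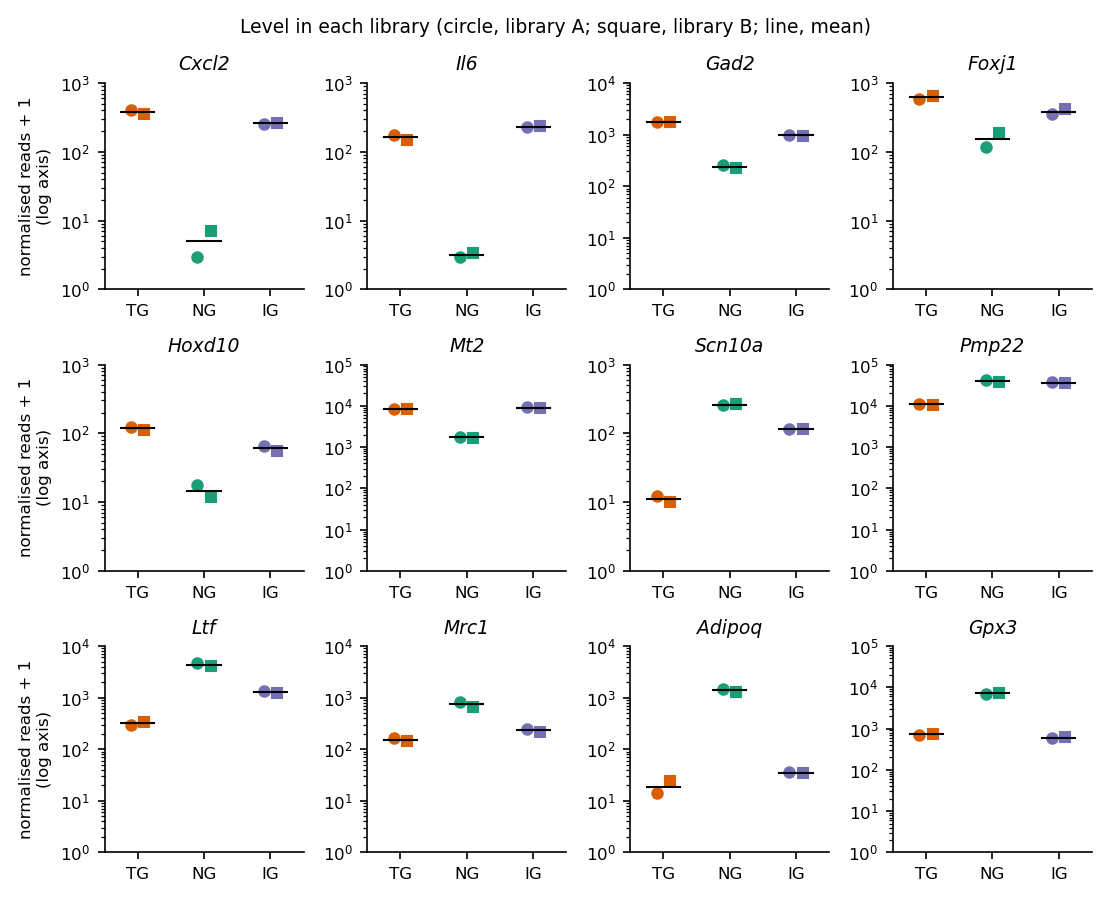
Normalised reads plus 1 in each library, on a log axis, for 12 genes that stand for the groups described; circles are library A, squares library B and lines the group mean. Cxcl2, Il6, Gad2, Foxj1, Hoxd10 and Mt2 are higher in both TG libraries than in both NG libraries, and the other 6 genes are lower; IG is shown as a level beside them.

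Vessel wall, connective tissue and muscle genes fell as well. Counting endothelium, smooth muscle, fibroblasts, skeletal muscle, cartilage with bone, and fat, 58 of 68 genes were lower and 1 was higher. Smooth muscle myosin, encoded by Myh11, had 43.4 and 59.3 normalised reads in TG A and B, against 1928 and 1874 in NG A and B. TG was below NG by more than 30-fold (-5.20 ± 0.17 (SE) log2 fold change, adjusted p = 3.77e-07 by limma), whereas the pericyte gene Rgs5 had 2405 and 2232 in TG, against 3639.6 and 3011 in NG (log2 fold change -0.51). Of 11 endothelial markers 7 fell and 1 rose. The tight junction gene Cldn5 of brain vessels had 1126 and 1282 in TG, against 1184 and 1424 in NG, and missed the threshold (limma adjusted p = 0.529). Flt1, a receptor for the growth factor VEGF, rose (log2 fold change 0.41). The call on Flt1 was lost without TG A and under scaling by total reads without mitochondrially encoded genes. Pecam1, of endothelium in general and of some leukocytes, had 497 and 499 in TG, against 2007 and 1800.3 in NG, and fell (-1.93 ± 0.09 (SE) log2 fold change, adjusted p = 1.17e-06 by limma).

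Bone genes were lower too. Bglap, the osteocalcin gene of osteoblasts, had 24.1 and 17.1 in TG, against 288 and 311 in NG (-3.81 ± 0.28 (SE) log2 fold change, adjusted p = 1.10e-05 by limma), and Ibsp, bone sialoprotein, had 9.65 and 16.0 in TG, against 154 and 165 in NG. In the cartilage and bone list 10 of 12 members fell. Postn, the matrix protein periostin, had 281 and 242 in TG, against 3815 and 3156 in NG, and was the largest change among the fibroblast genes, of which 10 of 12 fell. Beyond those, 12 of 12 other collagen and fibronectin genes were lower, from Col4a2 at -0.50 to Col14a1 at -2.52 on the log2 scale. Among skeletal muscle genes 10 of 11 fell; the fast troponin gene Tnnt3 had 1924 and 2022 in TG, against 14836 and 14371 in NG. Tnnc2 had no read in any of the 6 libraries. Liver genes had few reads in both groups: 3 of 12 reached the mean of 10, and the list summed to 59.3 to 59.5 in TG and 102.0 to 102.4 in NG. In IG the same genes summed to 25916 to 27191, with the albumin gene Alb at 12178 and 11346.

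Immediate-early genes, which neurons and glia switch on within minutes without new protein synthesis, were largely higher in TG. Of 9 AP-1 factors, 6 rose and 1 fell, with a median log2 fold change of 1.21. Fosb, a partner of Jun in the AP-1 dimer, had 1664 and 1797 normalised reads in TG A and B, against 173 and 172 in NG A and B. TG was more than 9-fold above NG (3.32 ± 0.09 (SE) log2 fold change, adjusted p = 1.50e-07 by limma). Fos had 3804 and 3897 in TG, against 822 and 894 in NG (log2 fold change 2.17), Jund had 2444 and 3084 in TG, against 1972 and 3386 in NG without passing the test (limma adjusted p = 0.837), and Batf, an AP-1 factor of lymphocytes and other leukocytes, fell with 14.5 and 14.8 in TG, against 31.1 and 48.2 in NG, a call lost on leaving out any 1 of the TG or NG libraries. In the list of Egr, Nr4a and other activity-induced genes, 10 of 13 rose and none fell. The nuclear receptor gene Nr4a3 had 390.2 and 390.2 in TG, against 28.2 and 28.9 in NG, and rose the most (3.73 ± 0.12 (SE) log2 fold change, adjusted p = 3.56e-07 by limma). Npas4, which responds to calcium entry in neurons, had 53.9 and 59.3 in TG, against 10.7 and 14.5 in NG (log2 fold change 2.10). The 250 bases before the start of Fosb and Fos are shown because these were the largest AP-1 changes with a RefSeq promoter entry (GRCm38.p6, 5′ to 3′ on the strand of the gene). Capitals mark any match, on either strand, to the kappaB letters GGANTTTCC, the cyclic AMP response element TGACGTCA, the AP-1 letters TGANTCA, the CCAAT box, the cell cycle element TTTGAA, known as CHR, the TATA box written TATAAA, or the CArG box, searched by its name.
Fosb, chr7:19310046-19310295, minus strand: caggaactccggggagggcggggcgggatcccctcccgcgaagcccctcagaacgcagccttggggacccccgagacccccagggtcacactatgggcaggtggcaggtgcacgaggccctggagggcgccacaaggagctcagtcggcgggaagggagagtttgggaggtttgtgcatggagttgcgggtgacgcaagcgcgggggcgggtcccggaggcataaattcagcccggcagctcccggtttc
Fos, chr12:85473640-85473889, plus strand: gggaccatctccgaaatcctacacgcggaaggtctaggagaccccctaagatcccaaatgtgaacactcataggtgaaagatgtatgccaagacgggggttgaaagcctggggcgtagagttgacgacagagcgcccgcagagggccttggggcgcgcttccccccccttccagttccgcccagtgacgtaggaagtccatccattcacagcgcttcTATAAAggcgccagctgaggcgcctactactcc

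The Fosb stretch held no match to those letters, and the Fos stretch held 1, the TATAAA 28 to 33 bases before the start. Among the 12312 of 16268 genes with an entry, 6.86% held TATAAA in this window. No AP-1 factor of the 8 with an entry held the AP-1, CRE, kappaB or CArG letters there, which says only that the letters are not in this window.

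Of 11 feedback regulators of MAP kinase signalling, 3 rose and 1 fell, the shares of all genes being 31.2% and 30.8%. The phosphatase gene Dusp5 had 289.6 and 334 in TG, against 78.7 and 78.3 in NG (1.97 ± 0.13 (SE) log2 fold change, adjusted p = 7.30e-06 by limma), Dusp1 rose by a log2 fold change of 0.68, and Dusp6, a reader of sustained ERK activity, had 592 and 543 in TG, against 847 and 736 in NG, and fell (-0.48 on the log2 scale). Spry2, Spry4, Dusp4 and Dusp10 had log2 fold changes of -0.03 to 0.12 and did not pass the test. Without TG A or TG B, no gene of this list was called lower, and without NG B, 5 were called higher.

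Cytokine and chemokine genes had the highest median of the pathway lists, 3.02, with 14 of 16 higher and 1 lower. The monocyte chemokine gene Ccl2 had 479 and 466 in TG, against 46.6 and 55.4 in NG (3.19 ± 0.13 (SE) log2 fold change, adjusted p = 8.08e-07 by limma). Ccl4, made by activated microglia and macrophages, had 119.9 and 122 in TG, against 7.77 and 3.62 in NG, and rose with a log2 fold change of 4.26. Lif, an interleukin-6 family cytokine of injured nerve, had 198 and 205 in TG, against 23.3 and 31.3 in NG (log2 fold change 2.85). Interleukin-1 genes differed in size, Il1a at 186 and 164 in TG, against 13.6 and 15.7 in NG, and Il1b at 129.5 and 148 in TG, against 36.0 and 12.1 in NG. The gene Tnf, of tumour necrosis factor, had 34.6 and 46.8 in TG, against 15.5 and 28.9 in NG, and was not called (limma adjusted p = 0.058). Ccl12 was the one member that fell, with 51.5 and 55.9 in TG, against 99.1 and 89.2 in NG (log2 fold change -0.80), a call lost without TG A. These genes were higher while the summed macrophage list stood at 1175 to 1219 in TG and 6252 to 6467 in NG, and the neutrophil list was lower as given above; the part of cell content in these changes was not tested. The promoters of Cxcl2 and Il6, the largest changes of the list with an entry, carry a kappaB match.
Cxcl2, chr5:90903649-90903898, plus strand: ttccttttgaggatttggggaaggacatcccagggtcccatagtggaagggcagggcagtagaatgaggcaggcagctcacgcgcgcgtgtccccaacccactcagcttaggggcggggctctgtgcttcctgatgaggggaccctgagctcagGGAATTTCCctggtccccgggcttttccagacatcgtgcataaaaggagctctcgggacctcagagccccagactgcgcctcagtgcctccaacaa
Il6, chr5:30012864-30013113, plus strand: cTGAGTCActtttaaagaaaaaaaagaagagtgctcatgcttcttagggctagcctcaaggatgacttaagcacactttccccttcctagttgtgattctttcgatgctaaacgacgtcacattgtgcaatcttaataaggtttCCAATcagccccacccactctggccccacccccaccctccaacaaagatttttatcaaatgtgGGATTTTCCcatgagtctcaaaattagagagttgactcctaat

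The kappaB letters lay 88 to 96 bases before the RefSeq start of Cxcl2, which is 28 bases from the GENCODE start given above. In Il6 they lay 35 to 43 bases before the start, and that stretch also held an AP-1 match and a CCAAT. Over the 12 cytokine genes with an entry, 41.7% held a kappaB match and 33.3% an AP-1 match, against 1.12% and 4.48% of all 12312. Such matches are a description of the letters and do not show that a factor was bound.

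NF-kB subunits, which bind kappaB sites, were not themselves higher. Nfkb1 had 687 and 718 in TG, against 871 and 825 in NG, and fell (-0.27 ± 0.08 (SE) log2 fold change, adjusted p = 0.0241 by limma), and Rel, Rela, Relb and Nfkb2 did not pass the test, with log2 fold changes of -0.41 to -0.13. Of 13 genes in the list 5 rose and 2 fell, against 31.2% and 30.8% of all genes. Scaling by total reads without mitochondrially encoded genes gave 3 and 5. Without TG B, NG A, IG A or IG B, 3 were called higher, and without TG A, TG B or NG A, 1 was called lower. Nfkbiz, an inducible co-factor needed for Il6 transcription, had 640.4 and 691 normalised reads in TG A and B, against 187 and 186 in NG A and B. The TG libraries were more than 3-fold above NG (1.83 ± 0.10 (SE) log2 fold change, adjusted p = 2.21e-06 by limma). Tnfaip3, which ends NF-kB signalling, and Icam1, an adhesion molecule of endothelium and glia, rose by 1.07 and 0.97 on the log2 scale, and Birc3 fell by 0.78. Among interleukin-6 receptors and STAT3 feedback genes, 3 of 10 rose and 3 fell, the shares of all genes being 31.2% and 30.8%. Socs3, the feedback inhibitor of interleukin-6 signalling, had 1521 and 1754 normalised reads in TG A and B, against 227 and 295 in NG A and B, and rose the most (2.65 ± 0.16 (SE) log2 fold change, adjusted p = 3.90e-06 by limma). Osmr, the oncostatin M receptor, and Stat3 rose too (1.09 and 0.50), while Socs1, Socs2 and Cish, induced by interferon or by STAT5, fell by 1.47, 0.79 and 1.06 on the log2 scale. Leaving out any 1 of the TG or NG libraries left 1 gene of that list called lower. The shared receptor chain Il6st had 2599 and 2568 in TG, against 2453 and 2382 in NG (limma adjusted p = 0.350).

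Because hydrogen is studied for its reaction with oxidants, the oxidant-handling lists were read gene by gene. Nrf2 itself, encoded by Nfe2l2, had 590.5 and 496 normalised reads in TG A and B, against 1158 and 995 in NG A and B. Both TG libraries were lower (-0.99 ± 0.11 (SE) log2 fold change, adjusted p = 0.000139 by limma). In the list of Nrf2 and its targets, 3 of 13 genes rose and 4 fell, which is near the 31.2% and 30.8% of all genes, so only single genes are described. Srxn1, sulfiredoxin, which restores oxidised peroxiredoxins, had 2639 and 2780.5 normalised reads in TG A and B, against 1061 and 1209 in NG A and B, more than 2-fold higher in TG (1.26 ± 0.09 (SE) log2 fold change, adjusted p = 8.06e-06 by limma). Gclc, the rate-limiting enzyme of glutathione synthesis, had 1150.4 and 1142 in TG, against 754 and 749.5 in NG (log2 fold change 0.61), and Txnrd1, thioredoxin reductase, rose by 0.35. Nqo1, a quinone reductase often taken as an index of Nrf2 activity, had 82.9 and 87.9 in TG, against 151 and 142 in NG, and fell (-0.77 ± 0.15 (SE) log2 fold change, adjusted p = 0.00335 by limma), and Osgin1 had 23.3 and 25.1 in TG, against 79.7 and 91.6 in NG, and fell further (-1.78). Hmox1, heme oxygenase, had 649 and 636 in TG, against 687 and 774 in NG, and missed the threshold (limma adjusted p = 0.143). Scaling by total reads without mitochondrially encoded genes raised the number of lower genes in this list to 8.

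Of 14 antioxidant enzyme genes, 9 fell and 1 rose, with a median log2 fold change of -0.56. Over all genes, 30.8% were lower and 31.2% higher. Gpx3, the secreted glutathione peroxidase of plasma and fat, had 716 and 719.9 normalised reads in TG A and B, against 6883 and 7465 in NG A and B. NG stood nearly 10-fold above TG (-3.32 ± 0.08 (SE) log2 fold change, adjusted p = 1.08e-07 by limma). Sod3, the extracellular superoxide dismutase of vessel walls, had 280.0 and 268 in TG, against 1375 and 1756 in NG (log2 fold change -2.50). Gpx1 and Gpx4, the cytosolic and membrane-lipid glutathione peroxidases, had 3273 and 3540.4 in TG, against 8696 and 9459.6 in NG for Gpx1 and 8441 and 7966 in TG, against 18266 and 18255 in NG for Gpx4. Sod2, of the mitochondrial matrix, was the one that rose, with 4289 and 3915 in TG, against 3445 and 3034 in NG (0.34 ± 0.11 (SE) log2 fold change, adjusted p = 0.0275 by limma). That call was lost when any 1 library was left out and under the scaling by total reads. Sod1, Cat, Prdx5 and Prdx6 did not pass the test, with log2 fold changes of -0.25 to -0.02.

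All 7 NADPH oxidase genes fell. Cybb, the catalytic subunit of the phagocyte oxidase, had 122 and 104 normalised reads in TG A and B, against 1283 and 976 in NG A and B. NG was more than 7-fold higher in every pairing (-3.30 ± 0.15 (SE) log2 fold change, adjusted p = 1.27e-06 by limma). Rac2, the small GTPase that activates it in leukocytes, had 221 and 232 in TG, against 1429.6 and 1745 in NG (log2 fold change -2.80), and Nox4, an oxidase of vessel walls and fibroblasts, had 38.6 and 37.7 in TG, against 121 and 101 in NG (log2 fold change -1.52). The phagocyte subunits are made by neutrophils and macrophages, whose marker lists fell in 11 of 11 and 10 of 10 genes, and whose part in these values was not tested.

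Of 12 heat shock genes 7 rose and 3 fell, against 31.2% and 30.8% of all genes. Hspa1a, the inducible HSP70, had 169 and 181 in TG, against 20.4 and 26.5 in NG, and its near-identical neighbour Hspa1b had 382 and 519 in TG, against 105 and 137 in NG, so that reads may have been divided between them. Both rose (log2 fold changes 2.86 and 1.88), whereas Bag3 had 435 and 497 in TG, against 711 and 939 in NG, and Cryab had 6520.3 and 6025 in TG, against 10261 and 10586 in NG, and both fell (log2 fold changes -0.81 and -0.73). Without TG B, 4 heat shock genes were called higher. Of 14 genes of the integrated stress and unfolded protein responses, 4 rose and 4 fell, near the 31.2% and 30.8% of all genes. Atf3, a stress and axon injury factor, had 1147 and 1127 normalised reads in TG A and B, against 117 and 91.6 in NG A and B, the largest rise of the list (3.45 ± 0.12 (SE) log2 fold change, adjusted p = 4.61e-07 by limma). The pseudokinase gene Trib3 fell (log2 fold change -1.57), and Ddit3, which encodes the pro-apoptotic factor CHOP, had 408 and 402 in TG, against 457 and 411 in NG (limma adjusted p = 0.484). Without TG A or NG B, 2 genes of this list were called lower, and without TG B, 1, while scaling by total reads gave 7.

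Among 15 p53 target and apoptosis genes 3 rose and 4 fell, not above the shares of all genes (31.2% and 30.8%). Gadd45b, also a target of NF-kB, had 607 and 649 in TG, against 170.1 and 235 in NG, and rose (1.65 ± 0.15 (SE) log2 fold change, adjusted p = 3.59e-05 by limma), and Ccng1, cyclin G1, had 1255 and 1171 in TG, against 3335 and 2744 in NG, and fell (-1.32 ± 0.12 (SE) log2 fold change, adjusted p = 4.20e-05 by limma). Pmaip1, which encodes the p53-induced death factor Noxa, had 134 and 139 in TG, against 70.0 and 39.8 in NG, and rose too (log2 fold change 1.36). The p53 targets Cdkn1a, Mdm2, Bbc3 and Bax had log2 fold changes of -0.80 to 0.21, none past the test. Without TG A or TG B, 1 gene of this list was called higher and 2 lower. Hypoxia and glycolysis genes likewise had 4 higher and 4 lower of 14, near those shares: Slc2a1, the glucose transporter of the blood-brain barrier, had 2409 and 2459.9 in TG, against 1101 and 1111 in NG (log2 fold change 1.14), while Ldha, lactate dehydrogenase A, had 3269 and 3511 in TG, against 6459.9 and 6382 in NG (log2 fold change -0.92). Vegfa had 1119.8 and 1343 in TG, against 915 and 1079.7 in NG, and Bnip3 had 2007 and 1977 in TG, against 2012 and 1769 in NG, neither called (limma adjusted p = 0.0942 and 0.491). Without TG B, 2 hypoxia genes were called lower.

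Of 11 genes in the list of glucocorticoid responses, 9 rose and 2 fell. Mt2, a metal-binding metallothionein, had 8342 and 8281 normalised reads in TG A and B, against 1747 and 1689 in NG A and B. The TG libraries were more than 4-fold above NG (2.27 ± 0.07 (SE) log2 fold change, adjusted p = 2.93e-07 by limma), and its neighbour Mt1 had 14726 and 12269.8 in TG, against 6141 and 5362 in NG, and rose too (limma adjusted p = 5.22e-05). Fkbp5, a chaperone that dampens the glucocorticoid receptor, had 1169.7 and 1254 in TG, against 561 and 588 in NG (1.08 ± 0.08 (SE) log2 fold change, adjusted p = 1.42e-05 by limma). Sgk1 and Errfi1, a kinase and an inhibitor of the EGF receptor, rose by 0.96 and 1.95 on the log2 scale. The receptor gene Nr3c1 fell, with 1302 and 1207 in TG, against 2027 and 1856 in NG (log2 fold change -0.63), as did Pdk4, a fuel-switching kinase of muscle and fat, with 374 and 358 in TG, against 1062 and 918 in NG (log2 fold change -1.43). Metallothioneins also respond to zinc and to interleukin-6, and Errfi1 to growth factors. In the circadian clock 5 of 13 genes rose and 3 fell, near the shares of all genes (31.2% and 30.8%), and 3 rose and 5 fell under scaling by total reads without mitochondrially encoded genes; Dbp, an output gene of the clock, had 369 and 448 in TG, against 912 and 1486 in NG, and fell (log2 fold change -1.51), a call that was lost without TG A, TG B or NG B (limma adjusted p = 0.134, 0.100 and 0.110). Per1 had 1131 and 1126 in TG, against 566 and 684 in NG, and rose (log2 fold change 0.86). Without TG A or TG B, 2 clock genes were called higher, and without NG B, 3.

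**Figure D4:**
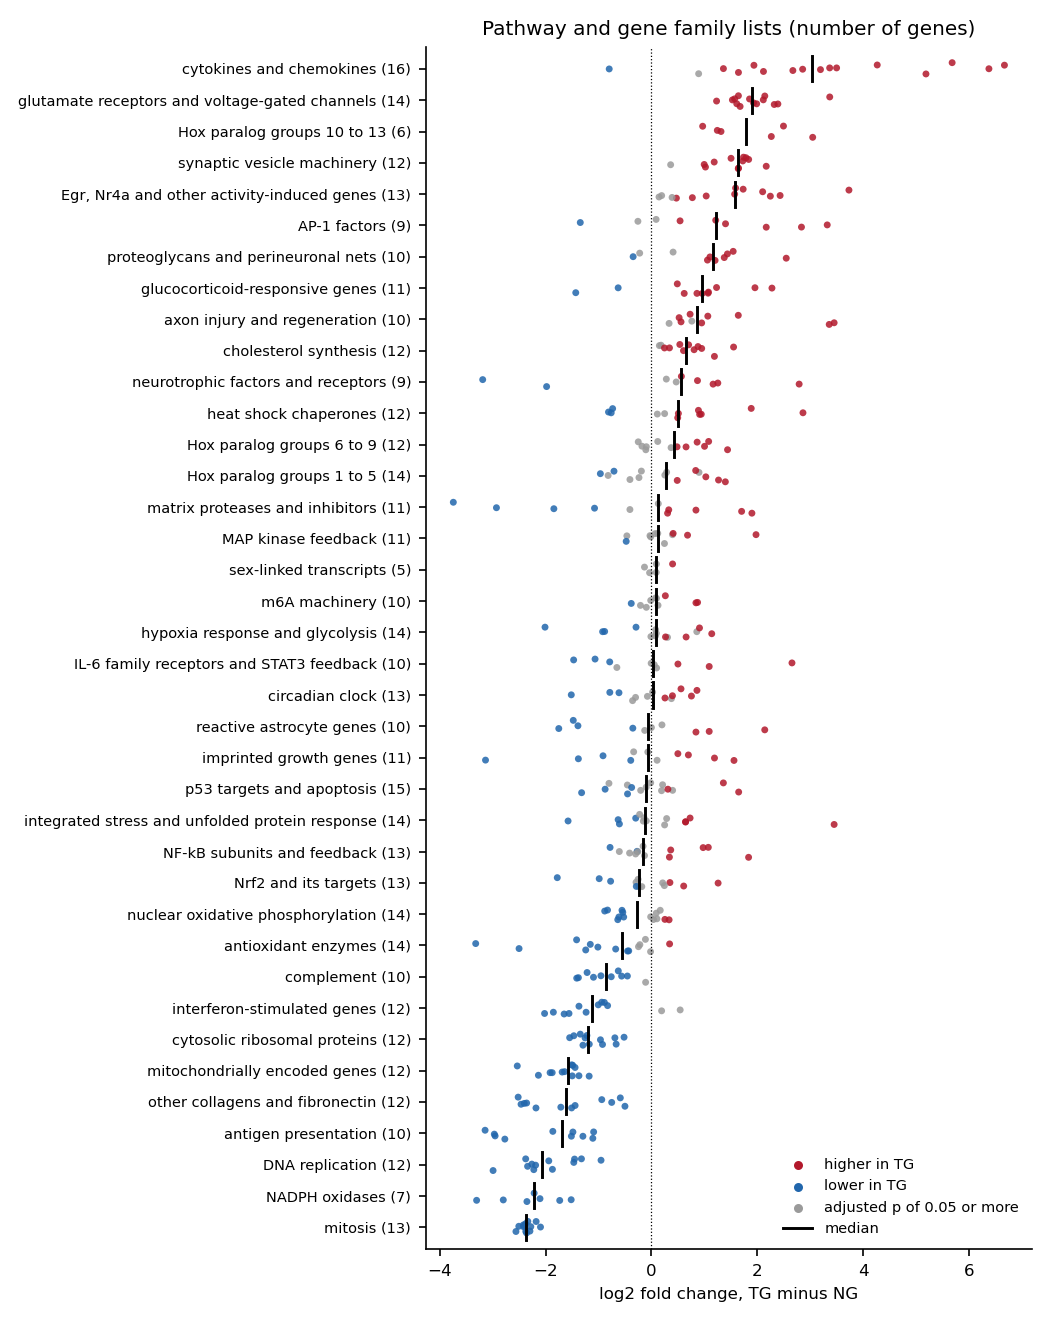
Log2 fold change of TG over NG for each gene of 38 pathway and family lists, ordered by their medians (black bars), with red for genes called higher, blue for lower and grey for not called. Cytokines, channels and the Hox 10 to 13 genes lie highest, with medians of 3.02, 1.89 and 1.79, and NADPH oxidases and mitosis lowest, with -2.21 and -2.37.

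Mitochondrially encoded genes were lower in TG in 12 of 12 cases, with a median log2 fold change of -1.57. A further gene, mt-Nd4l, lay under the mean of 10. The complex I subunit gene mt-Nd6 had 13279 and 12309 in TG, against 66972 and 47044 in NG (-2.13 ± 0.16 (SE) log2 fold change, adjusted p = 1.31e-05 by limma). The lowest was mt-Co3, of complex IV, at -2.53 on the log2 scale; mt-Nd5 and mt-Nd6 overlap on opposite strands and the library kit does not mark strand. Without TG B, 7 of the 12 were called lower. Of 14 nuclear genes of oxidative phosphorylation 7 fell and 2 rose, with a median of -0.27. Over all genes, 30.8% were lower and 31.2% higher. Cox7c, of complex IV, had 5377 and 5065 in TG, against 9871 and 9384 in NG, and fell the most (-0.88 ± 0.08 (SE) log2 fold change, adjusted p = 2.63e-05 by limma), and Atp5b, the catalytic subunit of ATP synthase, had 21132 and 22255 in TG, against 18774 and 19927 in NG (limma adjusted p = 0.150). The 2 that rose were Ndufs1 and Sdha, and no gene of this list was called higher without TG A, TG B, IG A or IG B, nor under either other scaling.

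Cytosolic ribosomal protein genes, which are short and highly expressed, fell in 12 of 12 cases, between Rpsa at -0.52 and Rpl13a at -1.54 on the log2 scale. Rpl13a had 12138 and 13438 normalised reads in TG A and B, against 35026 and 39621 in NG A and B, with NG more than 2-fold above TG (-1.54 ± 0.10 (SE) log2 fold change, adjusted p = 5.72e-06 by limma). Rplp0 had 13539 and 13179 in TG, against 34109 and 33722 in NG (log2 fold change -1.34). These genes have many processed pseudogene copies in the mouse genome, so part of their reads may be assigned to either. Over 144 processed pseudogenes of any kind in the comparison the median log2 fold change was -0.53, with 12.5% higher and 29.2% lower.

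Genes of dividing cells were lower without exception: 12 of 12 for DNA replication (median -2.06) and 13 of 13 for mitosis (median -2.37). Mki67, which marks cycling cells, had 742 and 669.7 in TG, against 3799.9 and 3080.1 in NG (-2.28 ± 0.12 (SE) log2 fold change, adjusted p = 2.74e-06 by limma). Cdc6, which loads the replicative helicase, had 40.2 and 41.1 in TG, against 349.9 and 311 in NG (log2 fold change -2.99). Birc5, survivin, a subunit of the chromosomal passenger complex, had 83.7 and 94.7 normalised reads in TG A and B, against 540.3 and 518 in NG A and B. NG was more than 5-fold higher (-2.56 ± 0.13 (SE) log2 fold change, adjusted p = 2.04e-06 by limma), and the spindle kinase gene Aurka had 78.8 and 46.8 in TG, against 307 and 353 in NG (log2 fold change -2.42). Marrow and lymphoid precursors, whose markers also fell, are among the cycling cells of a newborn mouse. So are erythroid precursors, although the red cell genes were divided. The part of these cells in the values was not tested. The stretches before Birc5 and Aurka are given below, as the largest mitotic changes with an entry.
Birc5, chr11:117848987-117849236, plus strand: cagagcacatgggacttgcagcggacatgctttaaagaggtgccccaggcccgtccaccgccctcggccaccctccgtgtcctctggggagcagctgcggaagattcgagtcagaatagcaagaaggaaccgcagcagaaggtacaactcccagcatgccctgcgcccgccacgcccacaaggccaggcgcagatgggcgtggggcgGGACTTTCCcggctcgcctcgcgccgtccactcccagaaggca
Aurka, chr2:172370571-172370820, minus strand: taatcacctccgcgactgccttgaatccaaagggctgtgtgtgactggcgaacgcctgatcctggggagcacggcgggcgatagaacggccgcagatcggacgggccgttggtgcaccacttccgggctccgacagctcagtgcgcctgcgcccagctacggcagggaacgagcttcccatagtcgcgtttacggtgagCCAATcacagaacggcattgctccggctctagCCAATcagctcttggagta

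Aurka held 2 CCAAT matches, 15 to 19 and 47 to 51 bases before its start, and Birc5 held a kappaB match and no CCAAT. Of the 11 mitotic genes with an entry, 90.9% held CCAAT and 54.5% the CHR letters TTTGAA, against 35.9% and 10.6% of all 12312 genes. None of those 11 mitotic genes held the AP-1 letters in this window.

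Excitability genes of neurons were higher as a block. All 14 glutamate receptor and voltage-gated channel genes rose, with a median of 1.89. Grin2a, an NMDA receptor subunit, had 117 and 148 in TG, against 9.72 and 14.5 in NG, and rose the most (3.36 ± 0.27 (SE) log2 fold change, adjusted p = 1.82e-05 by limma), and Scn1a, the sodium channel of inhibitory interneurons, had 3343 and 2908 in TG, against 692 and 513 in NG (log2 fold change 2.39). Of 12 synaptic vesicle genes 11 rose, the exception being Stx1a with 556 and 649 in TG, against 380.0 and 575 in NG (limma adjusted p = 0.143). Around synapses and axons, 7 of 10 proteoglycan and perineuronal net genes rose and 1 fell. Tnr, tenascin-R, made by oligodendrocytes and interneurons, had 966 and 1033 normalised reads in TG A and B, against 186 and 157 in NG A and B. TG was more than 5-fold above NG (2.54 ± 0.11 (SE) log2 fold change, adjusted p = 8.54e-07 by limma). Tnc, the tenascin of scar tissue and development, had 513 and 502 in TG, against 654 and 637 in NG, and fell (log2 fold change -0.35). Without TG B, 4 of the proteoglycan genes were called higher, and the call on Tnc was lost without TG A, TG B or NG A.

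Trophic factor genes differed from each other. Gdnf, a survival factor for motor neurons, had 41.0 and 47.9 in TG, against 11.7 and 2.41 in NG (2.79 ± 0.55 (SE) log2 fold change, adjusted p = 0.00306 by limma), and its receptor gene Gfra1 had 1158 and 1167 in TG, against 539 and 499 in NG (log2 fold change 1.16). Ntf3, neurotrophin 3, had 5.63 and 13.7 in TG, against 88.4 and 89.2 in NG, and fell (-3.19 ± 0.43 (SE) log2 fold change, adjusted p = 0.000367 by limma), as did the neurotrophin receptor gene Ngfr of Schwann cells and sensory neurons, with 98.1 and 119 in TG, against 382 and 481 in NG (log2 fold change -1.98). Bdnf had 117 and 131 in TG, against 104 and 77.1 in NG, and was not called (limma adjusted p = 0.0867). Of the axon injury genes, Sprr1a had 20.1 and 20.5 in TG, against 0.972 and 1.21 in NG (3.35 ± 0.42 (SE) log2 fold change, adjusted p = 0.000224 by limma), Gap43 of growth cones had 2608 and 2607 in TG, against 1533 and 1615 in NG (log2 fold change 0.73), and Arg1, arginase, had 18.5 and 29.7 in TG, against 13.6 and 13.3 in NG (limma adjusted p = 0.06). Sprr1a, near 1 in NG, passed the minimum mean of 10 only through TG. In cholesterol synthesis, 10 of 12 genes rose.

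Genes of antigen presentation, interferon response and complement were lower, unlike the cytokines. All 10 antigen presentation genes fell, with a median of -1.69. Cd74, the invariant chain of class II molecules, had 176 and 149 normalised reads in TG A and B, against 1354 and 1529 in NG A and B. NG was more than 7-fold above TG (-3.14 ± 0.13 (SE) log2 fold change, adjusted p = 7.33e-07 by limma). Psmb9, an immunoproteasome subunit, had 34.6 and 38.8 in TG, against 293 and 293 in NG (log2 fold change -2.97), although it overlaps Tap1 on the opposite strand. Of 12 interferon-stimulated genes 10 fell and none rose; Irf7, the factor that amplifies interferon production, had 45.9 and 42.2 in TG, against 166 and 198 in NG (-2.02 ± 0.19 (SE) log2 fold change, adjusted p = 4.45e-05 by limma), and Rsad2, viperin, had 356 and 471 in TG, against 864 and 784 in NG, a call lost without NG A. Without TG A, TG B or NG A, 5 of them were called lower. Of 10 complement genes 9 fell and none rose. C3, the central component, had 718 and 782 in TG, against 1410.2 and 1497 in NG (log2 fold change -0.95), and C1qa, mainly of microglia in this tissue, had 1047 and 1177 in TG, against 1459 and 1847 in NG (log2 fold change -0.56), a call lost when any 1 library was left out (limma adjusted p of 0.0518 to 0.213). Leukocyte marker lists fell along with these genes, and their part in the changes was not tested.

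Of 11 matrix protease and inhibitor genes, 5 rose and 4 fell, the shares of all genes being 31.2% and 30.8%. Scaling by total reads without mitochondrially encoded genes gave 3 and 5. Mmp13, a collagenase of bone and cartilage, had 21.7 and 19.4 in TG, against 339 and 242 in NG (-3.74 ± 0.22 (SE) log2 fold change, adjusted p = 3.73e-06 by limma), Mmp9, the gelatinase of neutrophils and osteoclasts, had 164 and 179 in TG, against 1238 and 1386 in NG (log2 fold change -2.93), and Mmp2 and Mmp14 also fell. Plat, tissue plasminogen activator, had 3128 and 2927 in TG, against 975 and 887 in NG, and rose (log2 fold change 1.70). Timp1, an inhibitor of metalloproteinases and a reactive astrocyte gene, rose by 0.84. Reactive astrocyte genes as a list had 3 higher and 4 lower of 10, near the 31.2% and 30.8% of all genes: Serpina3n had 944 and 959.5 normalised reads in TG A and B, against 213 and 218 in NG A and B, more than 4-fold higher in TG (2.14 ± 0.08 (SE) log2 fold change, adjusted p = 7.09e-07 by limma), and Lcn2, lipocalin 2, also a neutrophil granule protein, had 504 and 560.2 in TG, against 1965 and 1630.4 in NG, and fell (-1.75 ± 0.11 (SE) log2 fold change, adjusted p = 5.54e-06 by limma).

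Hox genes, which mark position along the body axis, had their highest median in the paralog groups of the tail end, a difference between groups that was not tested. All 6 members of paralog groups 10 to 13 were higher, with a median log2 fold change of 1.79, against 6 higher and none lower of 12 in groups 6 to 9 (median 0.43) and 5 higher and 2 lower of 14 in groups 1 to 5 (median 0.27). Hoxd10, expressed in the lumbar cord, had 124 and 112 normalised reads in TG A and B, against 16.5 and 10.8 in NG A and B. TG was more than 6-fold above NG (3.04 ± 0.27 (SE) log2 fold change, adjusted p = 3.09e-05 by limma). Hoxc10, also lumbar, had 611 and 565 in TG, against 249.8 and 246 in NG (log2 fold change 1.24), Hoxb9 had 1307 and 1360.0 in TG, against 492 and 493 in NG (log2 fold change 1.44), and the cervical and brachial gene Hoxc5 had 59.5 and 50.2 in TG, against 98.2 and 118 in NG, and fell (-0.96 ± 0.20 (SE) log2 fold change, adjusted p = 0.00468 by limma). Of the 6 other listed genes of groups 10 to 13, 5 lay under the mean of 10 and Hoxa13 had no read in any library. Exons of Hoxc5 and Hoxc10, of Hoxd3 and Hoxd4, and of Hoxa11 and its antisense gene overlap in the annotation. For groups 6 to 9, scaling by total reads without mitochondrially encoded genes gave 5 higher and 2 lower (median 0.27), without TG A or TG B 2 genes were called higher, without NG A or either IG library 4, and the median was 0.21 without NG A and 0.63 without NG B. Of groups 1 to 5, 3 were called higher under the scaling by total reads (median 0.11), none was called higher without TG A, TG B or NG A, and 1 without NG B, IG A or IG B. Of groups 10 to 13, 5 were still called higher without TG A and 5 without TG B.

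Imprinted growth genes had 4 higher and 4 lower of 11, near the 31.2% and 30.8% of all genes. H19, a maternally expressed noncoding RNA of growing tissues, had 2403 and 2380.0 normalised reads in TG A and B, against 19970.5 and 22040.3 in NG A and B, with NG more than 8-fold higher (-3.13 ± 0.08 (SE) log2 fold change, adjusted p = 1.23e-07 by limma). Igf2, of the same locus and paternally expressed, had 6610.4 and 6158 in TG, against 15877 and 17372 in NG (log2 fold change -1.38), while the neuronal genes Peg3 and Meg3 rose by 1.56 and 1.19 on the log2 scale. The submitters' design text speaks of mRNA modifications. Of 10 genes of the machinery that writes, reads or erases m6A on mRNA, 3 rose and 1, Wtap, fell, the shares of all genes being 31.2% and 30.8%. The call on Wtap was lost when any 1 library other than NG B was left out. Fto, a demethylase, had 2652 and 2669.8 in TG, against 1475 and 1499 in NG (log2 fold change 0.84), Mettl14 of the writer complex had 406 and 430.1 in TG, against 442 and 354 in NG (limma adjusted p = 0.641), and Mettl3 had 139 and 145 in TG, against 172 and 157 in NG (limma adjusted p = 0.305). Xist, from the inactive X chromosome, had 541 and 475 in TG, against 526 and 431 in NG, and the Y-linked Ddx3y had 1808 and 1601 in TG, against 1744 and 1462 in NG, so that transcripts of both sexes were present in each library and neither gene was called (limma adjusted p = 0.606 and 0.580).

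Transcript length, which the choice of genes did not use, went with the direction of change. In the 20% of genes with the shortest transcripts (longest annotated transcript of the gene, up to 1883 bases), 14.6% were higher in TG and 47.4% lower, with a median log2 fold change of -0.44. In the 20% with the longest, above 5183 bases, 51.0% were higher and 18.9% lower, with a median of 0.36. By mean level, the measure the genes were chosen by and so given as a description only, 18.9% were higher and 30.8% lower in the 20% of lowest level, and 48.4% and 25.7% in the 20% of highest. Among the 20% of highest level, 72.2% of those with the longest transcripts and 18.4% of those with the shortest were higher, and among the 20% of lowest level 25.5% and 15.4%. GC content showed little, with 29.3% to 32.6% higher in each of 5 equal classes. By chromosome, the share higher ranged between 25.9% on chromosome 17 and 41.0% on chromosome 12 among the autosomes, and was 39.2% on the X chromosome. Of 15039 protein-coding genes 32.3% were higher and 31.5% lower, and of 315 lincRNA genes 22.2% and 25.1%.

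**Figure D5:**
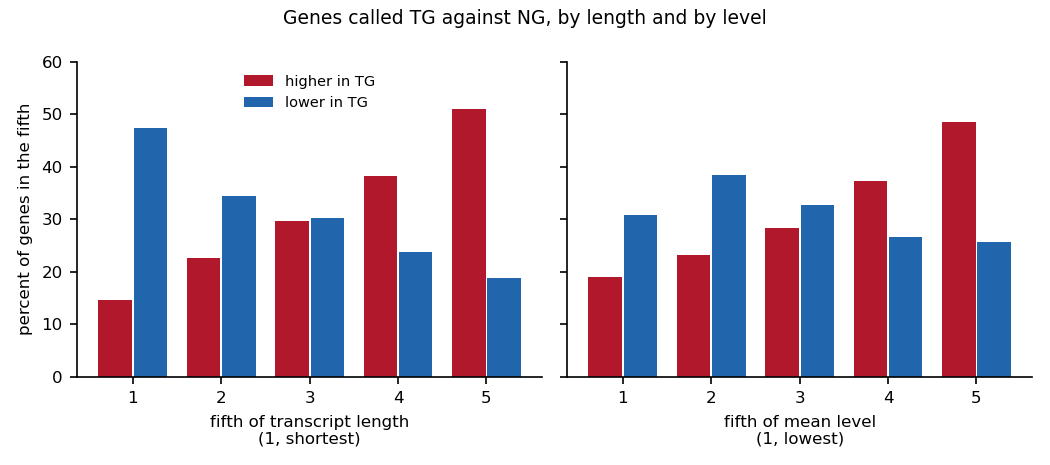
Percent of genes called higher (red) or lower (blue) in TG, in 5 equal classes of transcript length on the left and of mean level on the right, with bars from 0. The share higher grows from 14.6% to 51.0% with length and from 18.9% to 48.4% with level, and the share lower shrinks from 47.4% to 18.9% with length.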

How the data were processed

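RNA sequencing had been made from 6 libraries, 2 each of TG, NG and IG, and the labels' protocols name the TruSeq RNA kit, which does not mark strand. The submitters' processing notes list Bowtie2 2.0.6, HTSeq 0.6.1 and the genome build mm10. Which annotation and which test the authors used is not given in the sources used here. For gene levels, the authors deposited for each pair of groups a mean signal per gene and group, which is reads divided by a size factor and averaged over 2 libraries. The authors also deposited the log2 ratio of these means, which is TG over NG here, a p-value and its Benjamini-Hochberg adjustment.

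Each group stands in 2 such tables with different factors, so the whole reads of its deeper library (A) and shallower library (B) were solved from the 2 means. All 35275 genes gave whole reads within 0.001 read in each group. The deposited columns carry no library number, so A and B are not the replicate numbers of the labels. After scaling with median-of-ratios factors, log2(normalised reads + 1) was tested with limma 3.58.1 (R 4.3.3, trend on), over all 6 libraries and 24511 genes with a read, with calls at an adjusted p under 0.05. Fold changes on this scale understate the change of low genes. A gene with few reads in 1 group could pass the minimum mean of 10 only through the other group, where it is then high. Positions and transcript lengths come from GENCODE M21 (GRCm38) and promoters from RefSeq GRCm38.p6. The start in the promoter text is the RefSeq one. It lay 28 bases from the GENCODE start for Cxcl2, 35 for Aurka, 14 for Birc5 and 6 for Fosb. The solving and fitting steps were run on simulated reads with known values, and the motif search on planted motifs. The simulated fit used a fixed spread and few changed genes, so it does not show how often calls here are false.

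The genes and the 60 lists were chosen with earlier results of these data known. Named genes were the 12 highest and 12 lowest log2 fold changes among called protein-coding genes with an official symbol, the 5 genes of most reads and, per list, the called gene of largest change and the gene of most reads; other genes in the text were chosen from the lists after their values were seen. Of the listed or named genes, 199 of 686 share an exon with another gene, such as Jun, Junb, Fosl1, Cxcl10, Il1b, Mt2 and Hoxd10, and their reads may include those of the partner. Some genes that these rules name are not reported here.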

Additional observations from a re-analysis of the deposited data

How the results depend on the processing

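Between 6632 and 8550 genes were called when 1 library was left out, of which 3223 to 4246 were higher in TG and 3409 to 4304 lower, against 10099 with all 6. The drop exceeded 1.5 times without TG A (6712) and without TG B (6632); the single library left in that group was then assumed to vary like the others. Upper quartile scaling gave 10045 calls (4839 higher, 5206 lower), a pseudocount of 0.5 gave 10058, one of 5 gave 10146, fitting only genes with a mean of 10 or more gave 10569, fitting TG and NG alone gave 10033, and no variance trend gave 8272. Scaling by total reads without mitochondrially encoded genes gave 4082 higher and 6105 lower genes. Among the 139 genes taken by the naming rules, none reversed its direction with a call in the main fit or in the other setting. Other genes in the text were not part of this check. List medians near 0 did: 7 became negative under that scaling, namely the circadian clock and interleukin-6 receptors with STAT3 feedback (both -0.13), hypoxia, m6A and sex-linked transcripts (all -0.07), MAP kinase feedback (-0.04) and proteases (-0.03). The median of 10 lists in all, each within 0.13 of 0, changed sign in at least 1 setting. Of the 139 genes taken by the naming rules, 23 gained or lost a call in at least 1 of the 15 settings. Nfkbia, Tef, Hoxd3, Kdm5d, Mbp, Hmgcs1 and C1qa did so in 6 or more. That tally leaves out other genes in the text, some of which also lost a call, as given with their values. The cause was not tested. No paired analysis was possible because the deposited columns carry no library numbers. Libraries A and B are only the deeper and shallower of a group, yet their differences were shared in part: A minus B in TG correlated with A minus B in NG across the 16268 genes (Pearson r 0.24, genes not being independent replicates). With that depth order as a term, chosen after seeing the data, 11900 genes were called, 6008 higher and 5892 lower. The lists of Nrf2 with its targets, of p53 targets and of NF-kB then had 5, 6 and 5 genes higher and 8, 7 and 6 lower. With 2 libraries a group and 3 residual degrees of freedom, small changes rest on the spread that limma borrows across genes, and genes with few reads on counting error.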
